A study of Homo sapiens with 2 samples.

Results

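RHAG, RHCE, KEL, GYPC, SLC4A1, EPB42, SPTB and ANK1 encode proteins of the red cell membrane, several of which carry blood group antigens. These 8 genes were followed on 2 arrays, and every probe set that the array's annotation assigns to them was taken. The annotation used here assigned 18 of the 54613 probe sets without controls to 7 of the 8 genes. Of these, 16 belonged to 1 gene alone, 3 to RHAG, 1 to KEL, 2 to SLC4A1, 1 to EPB42, 2 to SPTB and 7 to ANK1. The other 2 were shared by RHCE and RHD, a close paralog that also lies on chromosome 1, so RHCE had no value of its own. GYPC, which encodes glycophorin C, had no probe set assigned to it and is not analysed here.

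MEG-01 is a megakaryoblastic cell line from a patient with chronic myeloid leukemia (CML) and stands for 1 line only. The cells were transduced with a lentivirus that carries GAS2DN, a truncated and dominant negative form of growth arrest specific 2 (GAS2), or with the control virus (Venus). In both vectors the spleen focus forming virus promoter was used and the yellow fluorescent protein Venus served for sorting, so both groups hold transduced, sorted cells. RNA from 3 extracts per group was pooled in equal amounts and hybridised to 1 Human U133 plus2.0 array per group, and the question was which transcripts differed with GAS2DN.

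In the red cell the lipid bilayer is held by a spectrin skeleton. Band 3 (SLC4A1), the anion exchanger, is tied to beta-spectrin (SPTB) by ankyrin (ANK1), with protein 4.2 (EPB42) at the same contact, and defects of these genes are known causes of hereditary spherocytosis. The Rh-associated glycoprotein (RHAG) forms a complex with the Rh proteins (RHCE and RHD) and is required for their display, and the Kell protein (KEL), an endopeptidase, is linked to XK. The genes are turned on during erythroid maturation, a lineage that shares its progenitor and the factor GATA1 with megakaryocytes.

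The sequences upstream of the genes are shown because GATA factors bind short motifs there. RefSeq windows of GRCh38.p14 were matched by symbol for RHAG, RHCE, KEL, GYPC, EPB42 and SPTB. SLC4A1 had no window in the sequences used, and ANK1 was left out, so the counts below do not speak for either. No gene was left out in this way from the groups set beside them. The letters AGATAA were searched on both strands, with T also allowed as the first base and G as the last, in the 250 bases before each start. Each of the 6 genes had at least 1 window with a match, and 6 of the 8 windows held one. Over all genes 22.3% of 35116 windows, or 26.2% of 27305 genes, held a match, and the share was 16 of 49 for other red cell membrane and blood group genes and 13 of 29 for their non-erythroid relatives. These motifs were chosen after the sequences were seen. A match is a description of letters and not a measured site. CCACACCC, CCGCACCC, CCACGCCC and CCGCGCCC, forms of the CACCC box, were found in the windows of 0 of the 6 genes. They were found for 17 of 49 other red cell membrane and blood group genes, for 15 of 29 relatives and for 17.8% of all genes. The last 150 bases before the start are printed for 5 genes, 5′ to 3′ on the minus strand, where all 5 genes lie, with the GATA matches in capitals. RHCE and SPTB had 2 windows each, and the one with a match is shown. The windows are chr6:49636840-49636989 for RHAG, chr1:25420826-25420975 for RHCE, chr7:142962364-142962513 for KEL, chr15:43221019-43221168 for EPB42 and chr14:64879908-64880057 for SPTB.
RHAG: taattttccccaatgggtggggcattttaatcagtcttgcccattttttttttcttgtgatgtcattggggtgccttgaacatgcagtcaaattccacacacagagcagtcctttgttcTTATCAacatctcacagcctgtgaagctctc
RHCE: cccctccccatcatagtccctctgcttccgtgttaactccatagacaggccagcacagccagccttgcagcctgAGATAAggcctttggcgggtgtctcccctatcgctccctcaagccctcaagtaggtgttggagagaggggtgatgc
KEL: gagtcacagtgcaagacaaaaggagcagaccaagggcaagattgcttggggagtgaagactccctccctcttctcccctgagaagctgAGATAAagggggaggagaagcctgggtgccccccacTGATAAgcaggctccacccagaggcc
EPB42: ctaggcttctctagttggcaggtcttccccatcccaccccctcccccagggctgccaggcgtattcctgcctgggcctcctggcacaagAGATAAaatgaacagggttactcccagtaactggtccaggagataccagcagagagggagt
SPTB: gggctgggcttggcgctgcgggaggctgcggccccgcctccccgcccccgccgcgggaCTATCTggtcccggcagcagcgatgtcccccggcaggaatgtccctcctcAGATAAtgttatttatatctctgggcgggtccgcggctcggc
The match nearest to the start began 31 bases before it in RHAG, 76 in RHCE, 26 in KEL, 61 in EPB42 and 42 in SPTB. In KEL and SPTB the printed window held 2 matches each, and the other one of EPB42 lay farther upstream, 208 bases before the start.

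The values are MAS5 signals, a probe set's brightness after scaling, and every ratio is that of GAS2DN to Venus, given as fold or as log2 of it. The median signal was 69.1 on the GAS2DN and 55.6 on the Venus array. Detection calls are not part of the values, so a probe set is called eligible when the brighter of its signals reached the median of its array, which 16 of the 18 did. GAS2 itself was read at 34.7 in GAS2DN and 24.3 in Venus cells, both below the median, by 1 probe set whose place relative to the truncation is not given in the sources used here. Of the megakaryocyte genes 8 of 12 were eligible, and all 8 were higher in GAS2DN cells in the deposited values, at a median log2 ratio of 0.36. The log2 ratios were 0.37 for ITGA2B, 0.87 for ITGB3, 0.11 for RAB27B, 0.10 for GP1BA, 0.22 for GP9, 0.35 for GP6, 0.56 for SELP and 0.62 for TUBB1. PF4, PPBP, VWF and F2RL3 were below the median on both arrays. The 12 megakaryocyte markers with a probe set summed to 23550 in GAS2DN and 19929 in Venus cells. The 9 erythroid ones summed to 35603 in GAS2DN and 28931 in Venus cells, of which TFRC, the transferrin receptor, made up 32031 in GAS2DN and 26125 in Venus cells. Of the erythroid genes 8 were eligible, 5 of them higher in GAS2DN cells in the deposited values, with log2 ratios of 0.29 for TFRC, 0.45 for KLF1, 0.30 for HBZ and 0.51 for AHSP, and a fold of 2.83 for HBM. The other 3 were lower, with -0.37 for EPOR, -2.19 for HBE1 and -0.87 for the main probe set of HBB, whose 3 brighter _x_at probe sets had 0.30 to 0.56. Lymphoid markers summed to 336 and 250 over 4 genes, granulocyte and monocyte markers to 490 and 316 over 6, and fibroblast markers to 235 and 197 over 5, in GAS2DN and Venus cells in each case. S100A8 and FCGR3B among the granulocyte and monocyte markers, and COL1A2 among the fibroblast ones, had a GAS2DN signal above and a Venus signal below the median, as had the lymphoid MS4A1. LYZ and CD79A, above the median on both arrays, had log2 ratios of -0.09 and 0.22. Of the erythroid list ALAS2 was below the median on both arrays. The part of these cell types in the values below was not tested. In pooled RNA, more cells of a type and more RNA per cell cannot be told apart.

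Red cell membrane and blood group genes had, in the deposited values, a slightly higher signal in GAS2DN than in Venus cells. Of the 18 probe sets 15 had a log2 ratio above 0, against 57.9% of all probe sets, but 9 of 18 after each array was centred on its median, against 39.3% of all. Probe sets of 1 gene are not independent, and 7 of the 18 read ANK1. RHAG, SLC4A1 and SPTB each had probe sets in both directions. The median log2 ratio of the 18 was 0.30, and that of all probe sets 0.12. Where both signals reached the median, which was so for 14 probe sets, 13 were higher in GAS2DN cells, against 56.4% of all such probe sets, and their folds lay between 0.917 and 1.77. Among these 14 there was 1 lower probe set, 211254_x_at of RHAG. None of these 14 lay over 3-fold. With 1 array per group there is no replicate of either, and no test could be made, so the precision of each value is not known.

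**Figure D1:**
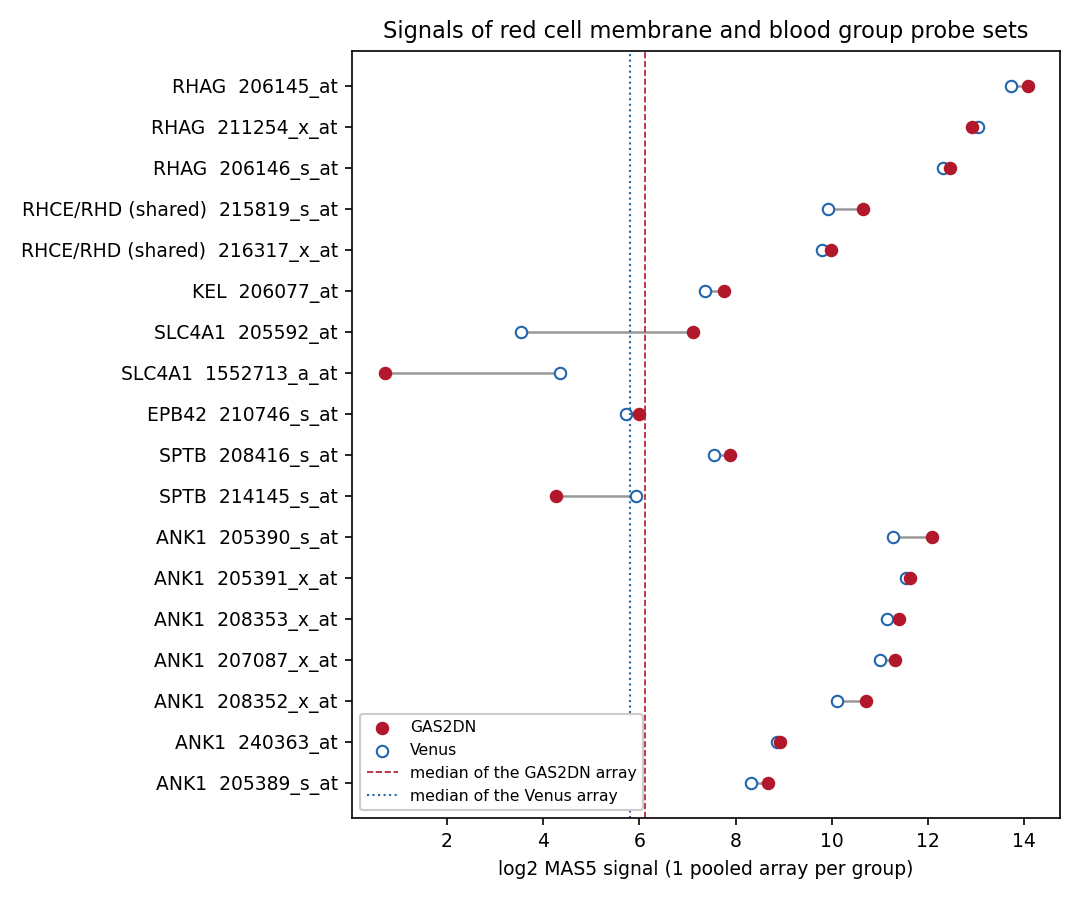
Log2 MAS5 signals of the 18 probe sets of RHAG, RHCE (shared with RHD), KEL, SLC4A1, EPB42, SPTB and ANK1 on the GAS2DN array (filled red) and the Venus array (open blue), with the median of each array as a vertical line. A grey bar joins the values of a probe set, and the long bars belong to both probe sets of SLC4A1 and to 214145_s_at of SPTB, each with at least 1 signal below the median.

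The Rh complex was read far above the array medians. RHAG had a signal of 17242 in GAS2DN and 13560 in Venus cells by 206145_at, a fold of 1.27 and a log2 ratio of 0.35, and this was the brightest of its probe sets. By 206146_s_at it had 5601 in GAS2DN and 5071 in Venus cells, a log2 ratio of 0.14. By 211254_x_at it had 7735 in GAS2DN and 8436 in Venus cells, a log2 ratio of -0.13. The probe sets of RHAG thus differed in direction, and the SD of their log2 ratios was 0.24. Names ending in _x_at mark probes that may also bind other transcripts, and those ending in _s_at mark probes common to several transcripts.

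The probe sets shared by RHCE and RHD were both higher in GAS2DN cells. The signals of 215819_s_at were 1612 in GAS2DN and 966 in Venus cells, a fold of 1.67 and a log2 ratio of 0.74. Those of 216317_x_at were 1011 in GAS2DN and 887 in Venus cells, a log2 ratio of 0.19. Which of the genes gave these signals cannot be told apart, and RHD, with 3 probe sets assigned to it alone, had log2 ratios of 0.46, 0.73 and 0.32. Both other proteins of the Rh complex in the lists were near equal signals or modestly higher. ICAM4, which carries the LW antigen, had 5520 in GAS2DN and 4245 in Venus cells, a log2 ratio of 0.38. CD47, the integrin-associated protein, had 15280 in GAS2DN and 14012 in Venus cells, a log2 ratio of 0.12.

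KEL was read by 1 probe set, 206077_at, at 217 in GAS2DN and 166 in Venus cells, a fold of 1.31 and a log2 ratio of 0.39. Probe sets were ranked by mean log2 signal and split into 10 deciles. Over all probe sets of the same decile the SD of the log2 ratio was 0.59, so the ratio of KEL lay within that spread. XK, the membrane protein that holds Kell, had 5746 in GAS2DN and 5949 in Venus cells, a log2 ratio of -0.05. The signals of XK were thus nearly equal, and those of its partner modestly apart.

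ANK1 had the most probe sets, and all 7 were higher in GAS2DN cells, with log2 ratios of 0.06 to 0.82 and an SD of 0.27 between them, although 4 of the 7 stayed above 0 after centring on the median. The main one, 205390_s_at, had 4369 in GAS2DN and 2467 in Venus cells, a fold of 1.77. Next came 208352_x_at, with 1684 in GAS2DN and 1113 in Venus cells, a log2 ratio of 0.60. It was followed by 205389_s_at with 411 in GAS2DN and 320 in Venus cells, a log2 ratio of 0.36. The probe sets 207087_x_at and 208353_x_at had log2 ratios of 0.32 and 0.24. Near equal signals were 205391_x_at, with 3167 in GAS2DN and 2977 in Venus cells, and 240363_at, with 487 in GAS2DN and 467 in Venus cells. The size of the ANK1 ratio thus depended on the probe set, and 240363_at, which ends in neither _s_at nor _x_at, had the lowest ratio of the 7. These probe sets read 1 gene from the same RNA and are not replicates.

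SPTB, the beta-spectrin of red cells, was read by a pair of probe sets that differed in direction. By 208416_s_at it had 238 in GAS2DN and 189 in Venus cells, a log2 ratio of 0.33. By 214145_s_at it had 19.3 in GAS2DN and 61.1 in Venus cells, a fold of 0.316 and a log2 ratio of -1.66. The GAS2DN signal of the second lay below the array median, and with low signals raised to the median its log2 ratio was 0.18. That value sets the GAS2DN array's median of 69.1 against the Venus signal of 61.1, so its sign is no reading of SPTB. Beta-spectrin thus had no settled direction.

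EPB42 was dim on both arrays, at 63.7 in GAS2DN and 52.8 in Venus cells, each just below the median. Its log2 ratio was 0.27, but -0.06 after quantile normalization, -0.04 after loess and -0.04 after centring. The spread over all probe sets of its decile was 0.84 (SD), and no difference of EPB42 could be made out.

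SLC4A1 had the largest ratios of the 8 genes, in opposite directions. By 205592_at it had 138 in GAS2DN and 11.7 in Venus cells, a fold of 11.8. By 1552713_a_at it had 1.63 in GAS2DN and 20.5 in Venus cells, a fold of 0.0795, and both of these signals lay below the array medians. Only the GAS2DN signal of 205592_at reached the median. With the array median added to each signal the log2 ratios were 1.62 and -0.11, and with low signals raised to the median 1.31 and 0.31. The 0.31 is only the distance between the arrays' medians, since both signals of 1552713_a_at were raised. The difference between the probe sets, 3.56 against -3.65 on the log2 scale, is larger than any other within the 8 genes, and band 3 had no settled direction.

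A fold over 3 in an eligible probe set was found in 2 of the genes, SLC4A1 higher and SPTB lower in GAS2DN cells. Over all eligible probe sets 5.78% were over 3-fold higher and 3.68% over 3-fold lower, so 1 of 16 in each direction is near the background. Both of these probe sets lay in the fifth decile of signal, counted from the dimmest, where 14.6% of all probe sets were over 3-fold higher and 6.46% lower. The other probe set of SLC4A1 lay in the dimmest decile, where 9.34% were over 3-fold lower. In the 3 brightest deciles, which held 12 of the 18 probe sets, 0.262% of all probe sets were over 3-fold in either direction, and none of the 12 was.

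The smaller ratios were set against the 5th to 95th percentile of all probe sets of the same decile. Outside these limits lay 5 of the 18 probe sets, with 10% of all probe sets outside by construction. Above the upper limit were 205390_s_at of ANK1, with a log2 ratio of 0.82 and a limit of 0.38, 208352_x_at of ANK1, with 0.60 and a limit of 0.47, and 215819_s_at of RHCE and RHD, with 0.74 and the same limit of 0.47. The others outside were the SLC4A1 probe sets, 205592_at above a limit of 2.43 and 1552713_a_at below a limit of -2.39. RHAG by 206145_at, with 0.35, was just under its limit of 0.38. Ratios outside these limits describe 1 pair of arrays and carry no error from replicates.

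**Figure D2:**
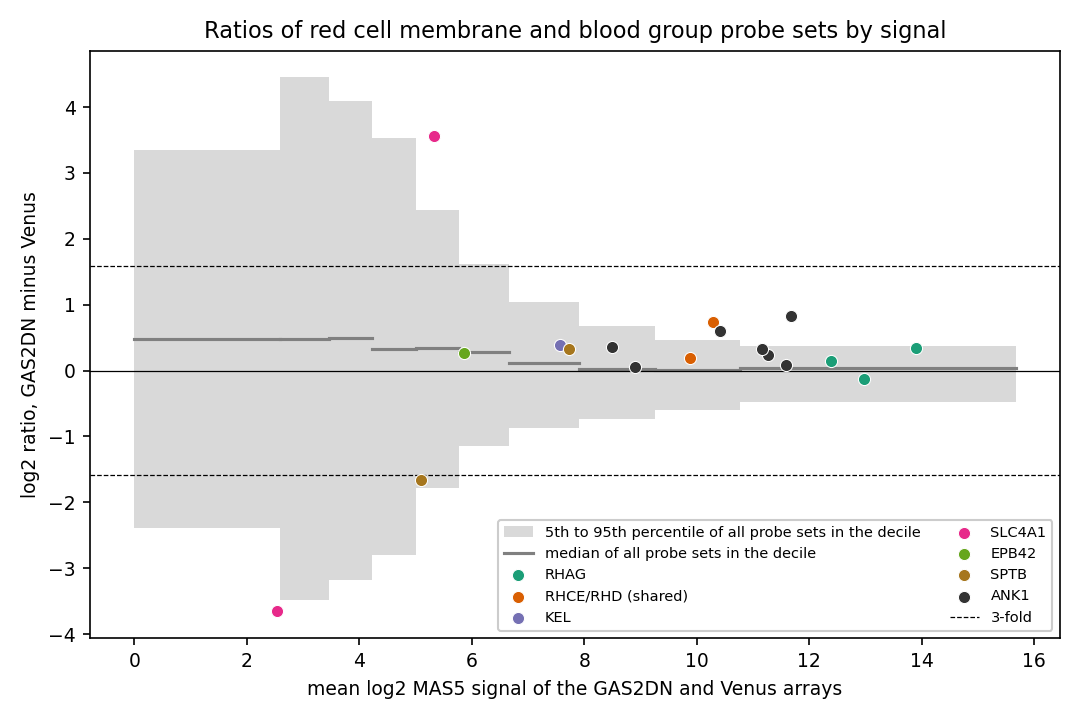
Log2 ratio of GAS2DN to Venus against the mean log2 signal of both arrays for the 18 probe sets, coloured by gene. Grey boxes span the 5th to the 95th percentile of all probe sets in each decile of signal, grey lines are their medians and dashed lines mark 3-fold. The ANK1 points at 0.82 and 0.60 and the RHCE and RHD point at 0.74 lie above the boxes of the bright deciles, and the SLC4A1 points lie outside those of dim ones.

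The other genes of the red cell membrane were taken from lists of the skeleton, of the band 3, Rh and transport complexes, and of blood group carriers and enzymes. Each gene was read by its main probe set, that of the brightest mean signal, with _x_at passed over where another existed. Of the 8 genes 5 had an eligible main probe set, with a median log2 ratio of 0.39. SLC4A1, 1 of the 5, reached the median only on the GAS2DN array, where it was high. With both signals at least at the median the value was 0.37. Over the 13086 genes with an eligible main probe set the median was 0.06 and 56.2% were above 0. After each array was centred on its median, the median over all genes was -0.26. Centring lowered every log2 ratio by the same amount, so it left the distance of each list from all genes as it was. The 8 eligible megakaryocyte markers, all above 0, had a median of 0.36, close to that of the 5 genes. Proteins of the skeleton other than SPTB and ANK1 were lower in GAS2DN cells in 7 of 11 genes, with a median log2 ratio of -0.16, and -0.47 after centring, but 0.15 by the median over all eligible probe sets of a gene and 0.01 without _s_at and _x_at. EPB41, protein 4.1, which joins spectrin to actin, had 3609 in GAS2DN and 4889 in Venus cells, a log2 ratio of -0.44, while its other eligible probe sets gave 0.74 and -0.76. ADD1, the alpha-adducin that caps actin, had a log2 ratio of -0.60, but 0.26 and 0.51 in its other eligible ones. The other 4 of the 6 brightest had ratios above 0 in the deposited values. ACTB, beta-actin, had 35617 in GAS2DN and 24246 in Venus cells, a log2 ratio of 0.55. TPM1, a tropomyosin, had 0.34, CAPZB, a capping protein of actin, had 0.19, though its _x_at probe sets gave -0.49 and 0.51, and STOM, stomatin, had 0.05.

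Genes of the band 3, Rh and transport complexes were higher in GAS2DN cells in 14 of 16, with a median log2 ratio of 0.37. After centring it was 0.05, against -0.26 for all genes. These genes included PIEZO1, the stretch-activated channel, with 2464 in GAS2DN and 1931 in Venus cells, a log2 ratio of 0.35. ABCB6, a porphyrin transporter that carries the Langereis antigen, was over 2-fold higher, with 125 in GAS2DN and 60.7 in Venus cells, although its other, dim probe set had a log2 ratio of -0.72. CA2, the carbonic anhydrase, and ABCC4, a nucleotide transporter, had log2 ratios of 0.06 and 0.08. Blood group carriers and enzymes were higher in GAS2DN cells in 14 of 20, at a median log2 ratio of 0.28, and -0.03 after centring. Some of these, XG, FUT2 and A4GALT, reached the median only on the GAS2DN array, where they were high, and with both signals at least at the median 11 of 16 genes were higher, at a median of 0.16. XG, a surface antigen, had 71.6 in GAS2DN and 6.43 in Venus cells, and -0.05 on the log2 scale in its other probe set. CD59 and CD55, inhibitors of complement, had 0.41 and -0.23. The other eligible probe sets of CD55 had 0.19 and 0.16, and those of CD59 had 0.32, 0.02 and 0.04. FUT1 and GBGT1, glycosyltransferases, had 0.33 and 0.41, while BSG and CD99 had 0.01 and 0.03.

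Relatives of these genes that other cells use were higher in GAS2DN cells in 13 of 23. Their median log2 ratio was 0.08, close to that of all genes, and -0.23 after centring, against -0.26 for all genes. By the median over all eligible probe sets of a gene it was 0.25, against 0.32 for the studied genes and 0.05 for all genes. Without a filter it was 0.34, against 0.37 for the studied genes and 0.09 for all genes. SPTBN1, the common beta-spectrin, had 7417 in GAS2DN and 5904 in Venus cells, a log2 ratio of 0.33, but its other eligible probe sets had -0.67, 0.36, -2.59 and 2.27. SLC4A7, a bicarbonate cotransporter, had 0.09, and EPB41L2 and EPB41L3, relatives of protein 4.1, had -0.21 and -0.22. SDC2, a syndecan, and TMOD3, a tropomodulin, had -0.07 and -0.02. Over 2-fold were RHCG, a renal Rh glycoprotein, with a log2 ratio of 2.73, EPB41L4A with 2.40 and SPTBN4 with -1.44, each with 1 signal below the array median, and other eligible probe sets of SPTBN4 had 2.21, 2.68 and -3.34. No test of the difference between the lists was made.

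**Figure D3:**
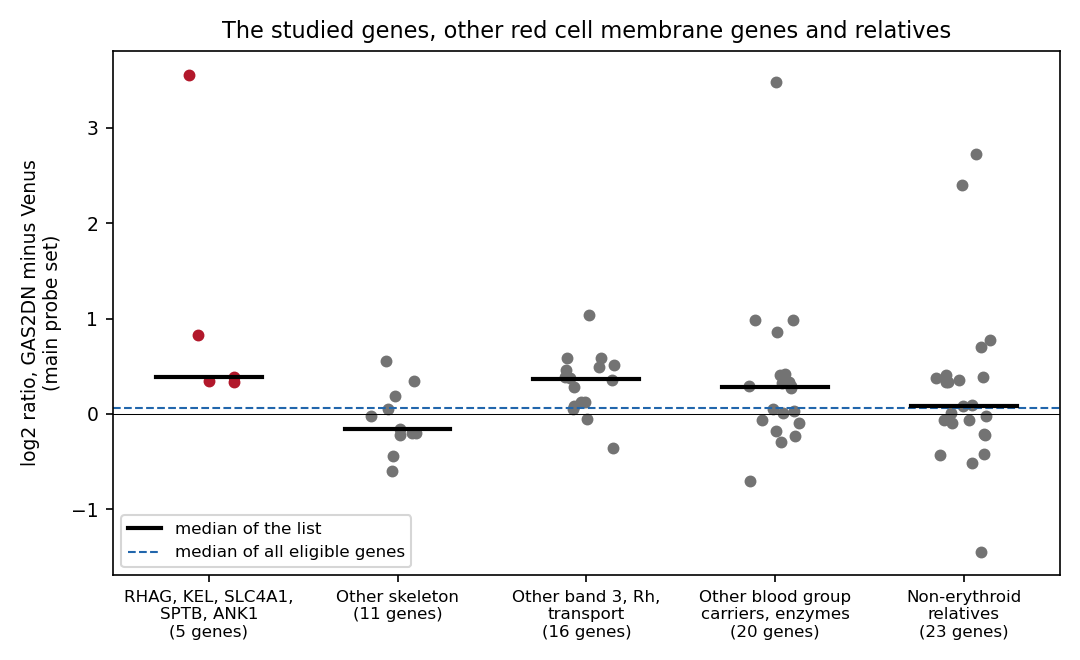
Log2 ratio of GAS2DN to Venus by the main probe set for the 5 genes with an eligible one (red) and for 4 lists of other genes (grey), with the number of genes in brackets. Among the 5 genes SLC4A1 is eligible only by its GAS2DN signal. Black lines are the medians, 0.39 for the 5 genes and -0.16, 0.37, 0.28 and 0.08 for the lists from left to right, and the dashed line is the median of all eligible genes.

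The signs and medians of the ratios were then compared across ways of treating the signals. After quantile normalization and after loess 14 of the 18 probe sets had a log2 ratio above 0, against 51.1% and 51.0% of all probe sets, and their median was 0.26 in both. With the array median added to each signal 15 of the 18 were above 0, against 70.8% of all, and the medians were 0.31 for the 18 and 0.22 for all. With low signals raised 17 of the 18 were above 0, against 77.6% of all, and the medians were 0.32 for the 18 and 0.31 for all, so that they were nearly the same. Each array was raised to its own median here, so a probe set below both medians took a log2 ratio of 0.31 whatever its signals. Under this setting the sign of such a probe set comes from the unequal medians and gives no direction. Centring on the median lowered every log2 ratio by the distance between the arrays' medians, so that the median of the 18 was -0.02 and that of all probe sets -0.19. The main probe set of ANK1 kept a log2 ratio of 0.51 and 215819_s_at of RHCE and RHD one of 0.43 after centring, while RHAG by 206145_at had 0.03 and KEL 0.08.

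**Figure D4:**
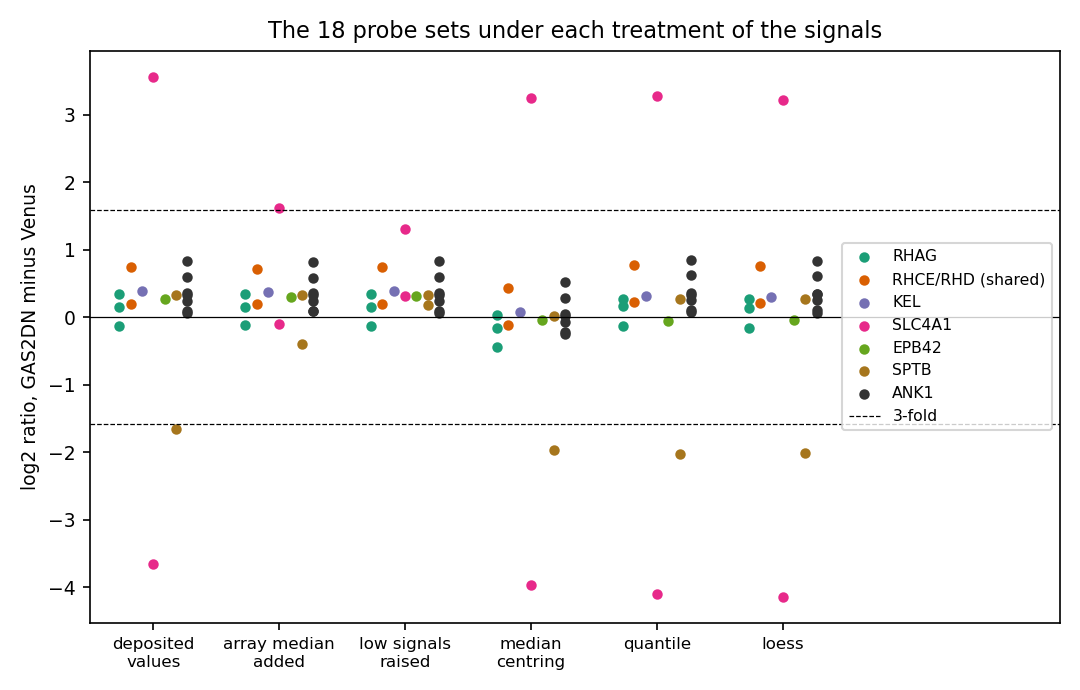
Log2 ratio of GAS2DN to Venus of each of the 18 probe sets in the deposited values and under 5 other treatments of the signals, coloured by gene, with 3-fold as dashed lines. Points of SLC4A1 and of 214145_s_at of SPTB move toward 0 when low signals are raised or the array median is added, while those of ANK1, RHAG, KEL and of RHCE and RHD shift by more than 0.1 only with centring.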

How the data were processed

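RNA of MEG-01 cells transduced with GAS2DN or Venus was pooled from 3 extracts per group and hybridised to 1 Human U133 plus2.0 array per group. The authors deposited log2 values of MAS5 signals (version not given in the sources used here), whose 2% trimmed mean was 500.1 on each array. Dim MAS5 signals vary most, which widens ratios of dim probe sets. Array annotation assigned 41091 of 54613 probe sets to 1 gene, 1801 to several and 11721 to none. Symbols were updated for 41037 and kept for 54. Only probe sets of 1 gene served for gene values, except the pair shared by RHCE and RHD.

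Ratios were GAS2DN over Venus. With 1 array per group no test was made, and 3-fold, the threshold of the study's text, served for calls. Of the other genes, those over 2-fold and the 6 brightest of each list were named. The genes and lists were chosen with earlier results of these data known. The alternatives changed the treatment of low signals, the scaling (loess span 0.2, 3 iterations), the way from probe sets to genes and the filter. The choice of main probe set and the 3-fold call were run on simulated ratios set in advance, and recovery was required only without added noise. The scaling, the lists and the motif search were not tested in this way. Python 3.11.15 was used with pandas 2.3.3 and numpy 2.4.6, loess came from statsmodels 0.14.6, and plots from matplotlib 3.10.9.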

Additional observations from a re-analysis of the deposited data

How the results depend on the processing

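No paired analysis was possible because each group has 1 array. The number of genes with a probe set over 3-fold was 2, and 1 with the array median added, 0 with low signals raised to it, 1 without _s_at and _x_at and 0 where neither signal might lie below the median. It was 2 under the other 5 alternatives. The median log2 ratio of the genes, 0.39, was 0.075 after median centring and 0.30 to 0.37 under the others except with low signals raised, where it was also 0.39. That of other red cell membrane and blood group genes, 0.19, was -0.13 after centring, which lowered the median over all genes to -0.26. That of the relatives, 0.08, was -0.23 after centring, 0.25 by the median over probe sets and 0.34 without a filter. SLC4A1 had a log2 ratio of -0.046 by the median over its probe sets and SPTB -0.66, because their probe sets went opposite ways. SLC4A1 and EPB42 gave no value where neither signal might lie below the median, and SPTB and EPB42 none without _s_at and _x_at. A list's median was taken as moved from 0.1 on. The signal limits SLC4A1, EPB42 and the second probe set of SPTB, each with a signal below the array median.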
